A study of Mus musculus with 4 samples.

Results

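The MYC, MAX and MXD network was examined through 9 genes, Myc, Mycn, Max, Mxd1, Mxi1, Mxd3, Mxd4, Mnt and Mga, taken by symbol from the 24015 gene symbols counted in each library. All 9 had enough reads to be tested. The libraries were 2 from caNIK mice and 2 from control mice, all made from total RNA of sorted hematopoietic stem and progenitor cells (HSPC). The caNIK mice carry, at the Rosa locus and behind a stop flanked by loxP sites, a mutant NIK that TRAF3 cannot target. NIK is the kinase at the head of non-canonical NF-kB signalling. Vav-iCre, a Cre line active throughout the blood system, removes the stop. Nothing in the sources used here gives the genotype of the control mice beyond that word, the sort markers, the tissue, or the age, sex and number of animals. Separate animals are not stated for the 2 libraries of a group, and the p-values therefore reflect only how these libraries vary, which may be technical.

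Proteins of this network bind DNA as pairs that share the partner MAX. MYC and MYCN paired with MAX recruit co-activators and raise the transcription of growth genes, whereas MXD1, MXI1, MXD3, MXD4 and MNT paired with MAX recruit SIN3 and histone deacetylases and repress many of the same genes. MGA, the largest MAX partner, belongs to a Polycomb complex. In blood, MYC is known to govern the balance between self-renewal and differentiation of stem cells, and MXD1 is known to rise as myeloid cells stop dividing and mature.

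The preferred site of these pairs is the E-box CACGTG, which is its own reverse complement and therefore reads the same on both strands. RefSeq promoter windows of GRCm38.p6, which run from 250 bases before to 50 bases after an annotated start, were found for 8 of the 9 genes, and Myc was not among them. Mxi1 had several starts, which made 10 windows in all. The E-box was found in 3 of these windows, those of Max, Mxd4 and Mnt, against 7.15% of all 32851 windows in the table. The variant CACGCG, searched on both strands, was found in the window of Mga and in 9.27% of all windows. The NF-kB consensus, also searched on both strands, was found in the window of Mycn and in 8.46% of all windows. The motifs were counted separately, and a match is only a run of letters that does not show binding. The windows of the 3 genes with an E-box and of Mxd1, the gene with the largest change, are shown 5′ to 3′ with the E-box in capitals.
Max, chr12:76962199-76962498, minus strand: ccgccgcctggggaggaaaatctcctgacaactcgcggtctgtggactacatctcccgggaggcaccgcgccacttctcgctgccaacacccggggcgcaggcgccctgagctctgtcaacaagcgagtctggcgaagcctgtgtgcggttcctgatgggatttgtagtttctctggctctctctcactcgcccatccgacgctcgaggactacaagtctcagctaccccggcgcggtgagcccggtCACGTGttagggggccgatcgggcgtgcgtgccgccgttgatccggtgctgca
Mxd4, chr5:34187661-34187960, minus strand: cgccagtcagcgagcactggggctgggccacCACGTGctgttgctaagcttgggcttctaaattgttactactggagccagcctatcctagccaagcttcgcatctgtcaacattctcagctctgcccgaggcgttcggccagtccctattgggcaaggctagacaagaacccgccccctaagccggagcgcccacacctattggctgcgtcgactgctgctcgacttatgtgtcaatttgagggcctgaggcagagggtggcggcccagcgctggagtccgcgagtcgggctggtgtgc
Mnt, chr11:74830674-74830973, plus strand: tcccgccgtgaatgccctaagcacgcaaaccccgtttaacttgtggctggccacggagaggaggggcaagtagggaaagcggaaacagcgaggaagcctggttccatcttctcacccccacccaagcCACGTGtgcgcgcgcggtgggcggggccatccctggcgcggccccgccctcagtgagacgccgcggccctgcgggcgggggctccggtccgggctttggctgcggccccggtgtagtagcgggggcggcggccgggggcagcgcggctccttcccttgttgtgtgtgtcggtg
Mxd1, chr6:86669110-86669409, minus strand: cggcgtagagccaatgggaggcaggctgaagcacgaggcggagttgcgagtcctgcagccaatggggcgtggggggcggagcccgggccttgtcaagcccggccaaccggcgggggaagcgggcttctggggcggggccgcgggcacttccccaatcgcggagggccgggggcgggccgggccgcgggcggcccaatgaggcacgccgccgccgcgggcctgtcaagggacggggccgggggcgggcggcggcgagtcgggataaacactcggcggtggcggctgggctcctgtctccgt
In the window of Max the E-box began 3 bases before the start, in that of Mnt 123 bases before it and in that of Mxd4 219 bases before it. The window of Mxd1 held none of the 3 motifs and was the richest in G and C of the 10 (76.7%), and that of Mycn had 56.7%.

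Library totals lay between 18574452 and 23162766 counts. Map3k14, the NIK gene, had 3305 and 3989 reads in caNIK, against 582 and 588 reads in control, a difference in the direction of the labels; reads of the inserted and the native copy were not separated. Of 14191 genes tested over the whole table with edgeR's quasi-likelihood test, 22.0% passed the threshold, a Benjamini-Hochberg adjusted p under 0.05, 13.8% as higher and 8.21% as lower in caNIK. Of 9 lists of cell type markers, 7 held genes that passed. Erythroid markers summed to 3750 and 5879 CPM (read counts brought to a common library size with factors from the trimmed mean of M values, TMM) in caNIK, against 722.7 and 1406 CPM in control, with 7 of 11 higher. Mast cell markers summed to 1690 and 838.1 CPM in caNIK, against 45.07 and 64.33 CPM in control (5 of 6 higher). Neutrophil and granulocyte progenitor markers summed to 298.3 and 353.3 CPM in caNIK, against 1341 and 3206 CPM in control (4 higher and 4 lower of 9). The control sums were mostly Mpo, at 1038 and 2503 CPM. The 4 lower markers were Mpo, Elane, Prtn3 and Csf3r, and the 4 higher ones were Ltf, Ngp, Camp and S100a8. Stem and progenitor markers summed to 2144 and 1693 CPM in caNIK, against 3421 and 3076 CPM in control (2 higher and 3 lower of 12). Megakaryocyte markers summed to 587.5 and 461.6 CPM in caNIK, against 98.75 and 196 CPM in control (4 higher and 1 lower of 7). T and NK lineage markers summed to 310 and 160 CPM in caNIK, against 80.19 and 43.84 CPM in control (2 of 8 higher). B lineage markers summed to 73.52 and 48.06 CPM in caNIK, against 91.39 and 61.52 CPM in control, which overlapped, with 3 of 7 lower. Sums also overlapped for monocyte and macrophage markers (187.1 and 209.4 CPM in caNIK, 106.1 and 218.3 CPM in control) and for endothelial and stromal markers (237.8 and 149.3 CPM in caNIK, 140.9 and 232.5 CPM in control). In each of these lists 0 genes passed in edgeR, with 1 at an unadjusted p under 0.05, against 5076 of all 14191 genes tested. No marker of these lists was at 0 in both libraries of a group. The part of such differences in the results on the network was not tested, and in bulk RNA fewer cells of a type and less RNA per cell cannot be told apart.

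Of the 9 network genes, 1 was higher in caNIK HSPC, the repressor gene Mxd1, and 3 were lower, the activator genes Myc and Mycn and the repressor gene Mnt. These are 11.1% and 33.3% of the network, against 13.8% and 8.21% of all genes tested. The other 5, Max, Mxi1, Mxd3, Mxd4 and Mga, did not pass. Levels of the groups did not overlap for 8 of the 9 genes, 1 higher and 7 lower, but the same held for 64.9% of all genes tested (33.3% higher and 31.6% lower). The median log2 fold change of the network was -0.37, against 0.00 for all genes tested.

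**Figure D1:**
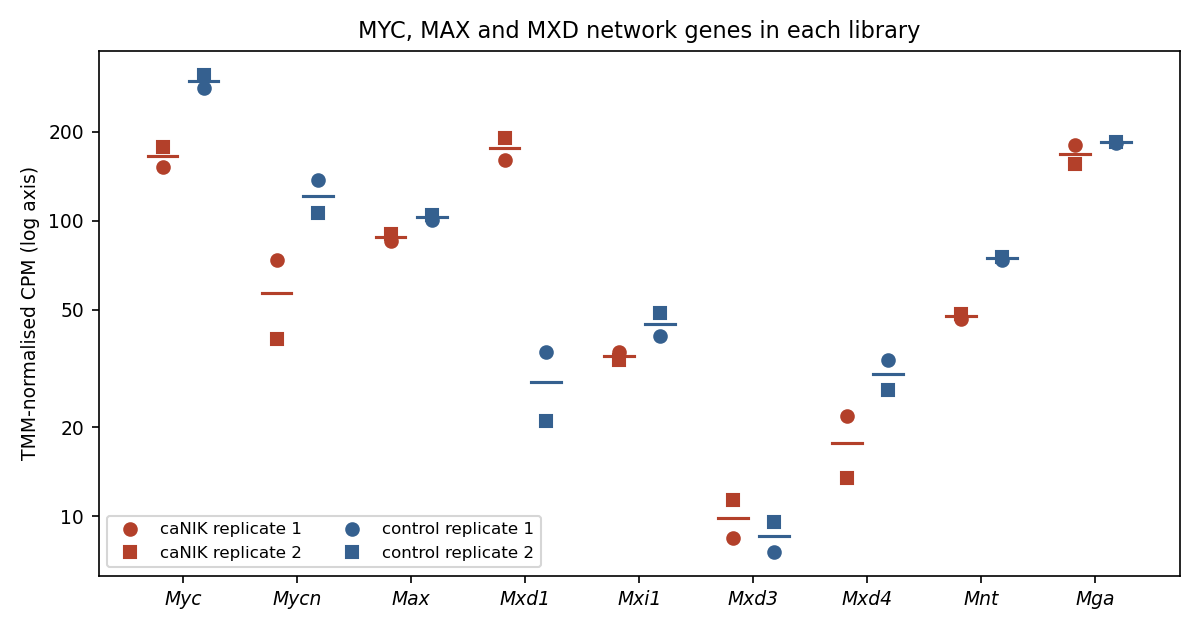
TMM-normalised CPM of the 9 network genes on a log axis, with caNIK libraries in red left of control libraries in blue; circles are replicate 1, squares replicate 2 and lines the mean of n = 2. Mxd1 lay at 161 and 191 CPM in caNIK, above 36.0 and 20.9 CPM in control, while Myc, Mycn and Mnt lay lower in caNIK with no overlap.

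Myc, the main MYC gene of blood progenitors, had 2828 and 3695 reads in caNIK replicates 1 and 2, against 5432 and 7331 in control replicates 1 and 2. Scaled, these were 152 and 178 CPM in caNIK and 282 and 312 CPM in control. Both caNIK libraries lay below both control libraries, and the gap between the groups was wider than the gap within either. Myc thus averaged 165 ± 18.6 CPM in caNIK and 297 ± 21.6 CPM in control (SD, n = 2 each), with a log2 fold change (± SE) of -0.85 ± 0.16 (edgeR adjusted p = 0.0109). It passed in all 12 alternative fits, with log2 fold changes from -0.99 to -0.73.

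Mycn, the MYC relative that acts beside Myc in stem cells, had 1376 and 826 reads in caNIK, against 2644 and 2494 in control. This gave 73.9 and 39.8 CPM in caNIK and 137 and 106 CPM in control. The groups did not overlap, but the caNIK libraries stood far apart, with replicate 1 above replicate 2 by 0.89 on the log2 scale, and replicate 1 was also the higher library in control (by 0.37). The log2 fold change was -1.10 ± 0.30 (edgeR adjusted p = 0.0435), and Mycn no longer passed without caNIK replicate 2 (log2 fold change -0.74, edgeR adjusted p = 0.0563) or with library totals in place of TMM factors (-1.16, edgeR adjusted p = 0.0512). Per read of Myc and per kb of exon, Mycn gave 0.425 and 0.195 reads in caNIK and 0.425 and 0.297 in control, so the replicate 1 libraries of both groups had about the same ratio and the replicate 2 libraries lay below them.

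Max, the shared partner, had 1592 and 1873 reads in caNIK, against 1945 and 2460 in control, or 85.5 and 90.3 CPM in caNIK and 101 and 105 CPM in control. The libraries of a group lay close together, and both caNIK libraries were lower. The log2 fold change of -0.23 ± 0.14 did not pass (edgeR adjusted p = 0.313), and it passed in 0 of the 12 alternatives.

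Mxd1, the founding repressor of the MXD group, had 2996 and 3966 reads in caNIK, against 695 and 491 in control. These were 161 and 191 CPM in caNIK and 36.0 and 20.9 CPM in control. Each caNIK library was far above each control library, and the control libraries differed from each other by more (0.79 on the log2 scale, replicate 1 higher) than the caNIK libraries did (-0.25, replicate 2 higher). Mxd1 averaged 176 ± 21.4 CPM in caNIK and 28.5 ± 10.7 CPM in control (SD, n = 2 each), a 6.19-fold rise (log2 fold change 2.63 ± 0.28; edgeR adjusted p = 0.00136). The size of its change was larger than that of 91.5% of genes tested. It passed in all 12 alternative fits, with log2 fold changes from 2.29 to 3.05.

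Mxi1, the MXD gene also called Mxd2, had 667 and 699 reads in caNIK, against 787 and 1146 in control (35.8 and 33.7 CPM in caNIK, 40.8 and 48.8 CPM in control). The groups did not overlap, but the gap between the control libraries was wider than the gap between the groups, and the log2 fold change of -0.37 ± 0.18 did not pass (edgeR adjusted p = 0.196). Mxd3, known for its expression in dividing progenitors in S phase, was the least counted of the 9, with 157 and 235 reads in caNIK and 146 and 224 in control. Its levels of 8.43 and 11.3 CPM in caNIK and 7.57 and 9.54 CPM in control overlapped (log2 fold change 0.21 ± 0.33, edgeR adjusted p = 0.709), and the sign turned without caNIK replicate 2 (-0.042). Mxd4 had 408 and 280 reads in caNIK, against 650 and 628 in control, or 21.9 and 13.5 CPM in caNIK and 33.7 and 26.8 CPM in control. As with Mycn, replicate 1 was the higher library in both groups. The log2 fold change of Mxd4 was -0.77 ± 0.29 (edgeR adjusted p = 0.107); without caNIK replicate 1 it was -1.16 and passed (edgeR adjusted p = 0.0287).

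Mnt, a MAX-bound repressor found in most cells whether or not they divide, had 868 and 1002 reads in caNIK, against 1419 and 1774 in control. Replicates of Mnt lay closer together than those of Myc, at 46.6 and 48.3 CPM in caNIK and 73.6 and 75.6 CPM in control. Both caNIK libraries were lower, with a log2 fold change of -0.65 ± 0.15 (edgeR adjusted p = 0.0226). The size of the change hardly moved when a library was left out (-0.70 to -0.62), but Mnt did not pass without control replicate 1 (edgeR adjusted p = 0.0974) or without control replicate 2 (edgeR adjusted p = 0.128). Mga had 3350 and 3221 reads in caNIK, against 3538 and 4346 in control, or 180 and 155 CPM in caNIK and 184 and 185 CPM in control. The highest caNIK library of Mga lay just under the control libraries, and its log2 fold change of -0.14 ± 0.15 did not pass (edgeR adjusted p = 0.563).

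**Figure D2:**
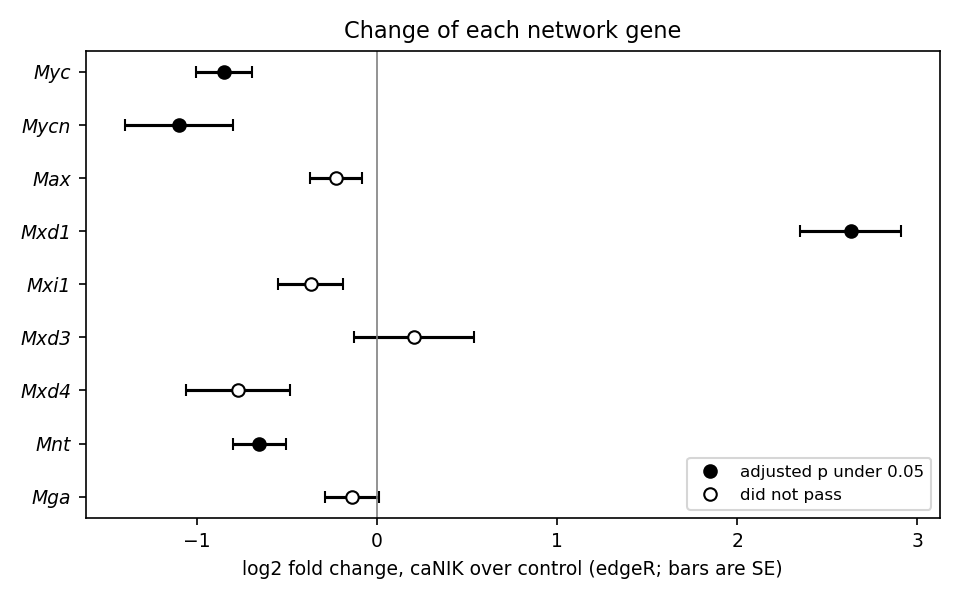
Log2 fold change of each network gene, caNIK over control, from edgeR; bars are SE and filled points passed at an adjusted p under 0.05. Mxd1 at 2.63 stands apart on the right, and Myc at -0.85, Mycn at -1.10 and Mnt at -0.65 lie left of 0.

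The order of the genes by level was compared per length, as TMM-normalised CPM per kb of exon. Lengths came from GENCODE M21 on GRCm38, not from the authors' mm9 annotation, so this order is approximate. In caNIK the order was Myc (67.4 ± 7.59), Max (44.9 ± 1.74), Mxd1 (37.7 ± 4.59), Mycn (20.3 ± 8.59), Mga (12.0 ± 1.25), Mnt (10.3 ± 0.261), Mxd3 (7.45 ± 1.54), Mxi1 (5.22 ± 0.225) and Mxd4 (4.56 ± 1.53; CPM per kb, SD, n = 2). In control it was Myc (121 ± 8.84), Max (52.5 ± 1.42), Mycn (43.4 ± 7.79), Mnt (16.25 ± 0.306), Mga (13.2 ± 0.0842), Mxd4 (7.79 ± 1.27), Mxi1 (6.73 ± 0.851), Mxd3 (6.45 ± 1.05) and Mxd1 (6.10 ± 2.29). Myc and Max led in both groups. Mxd1 ranked 3 of 9 in caNIK and 9 of 9 in control, where the libraries of Mxd1, Mxd3, Mxi1 and Mxd4 overlapped, so that their order in control is not resolved. In caNIK, the libraries of Mxi1 and Mxd4 overlapped, and the gap between the means of Mycn and Mga was smaller than the SD of Mycn.

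**Figure D3:**
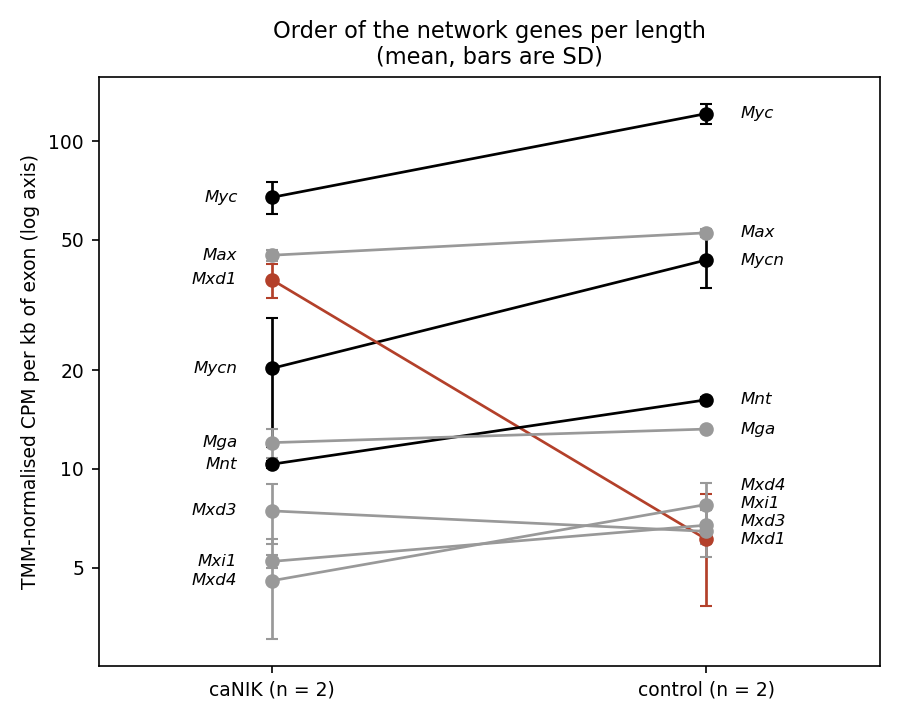
Mean level of each network gene in caNIK (left) and control (right), as TMM-normalised CPM per kb of exon on a log axis; bars are SD over n = 2 libraries. Mxd1, in red, lies at 37.7 in caNIK and 6.10 in control (rank 3 in caNIK and 9 in control), while Myc and Max stay on top in both groups.

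Ratios taken within a library do not depend on how libraries are scaled. Per read of Myc, with both counts divided by exon length, Mxd1 gave 0.556 and 0.563 reads in caNIK, against 0.0671 and 0.0351 in control. Both caNIK libraries thus had nearly the same ratio, well above either control library. Per read of Max, Myc and Mycn together gave 2.025 and 1.89 reads in caNIK and 3.18 and 3.09 in control, whereas Mxd1 gave 0.790 and 0.889 in caNIK and 0.150 and 0.0838 in control. The 4 MXD genes together gave 0.587 and 0.667 reads per read of Myc and Mycn in caNIK, against 0.172 and 0.157 in control. Without Mxd1, the ratio of the other 3 was 0.197 and 0.196 in caNIK and 0.125 and 0.129 in control. This ratio was thus also higher in both caNIK libraries, but its denominator, Myc and Mycn, was lower there. None of the 3 genes was itself called, with log2 fold changes of -0.37 for Mxi1, 0.21 for Mxd3 and -0.77 for Mxd4. Mxd1 made up 66.5% and 70.6% of the length-corrected MXD reads in caNIK, against 27.35% and 17.3% in control. For a single ratio, an exact permutation test of 2 against 2 libraries cannot go below a two-sided p of 0.333, so no test was made of these ratios. They compare transcripts, and protein was not measured.

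Across all 4 libraries, the genes whose profile lay nearest to that of Myc were Gpn1, a GTPase needed for nuclear import of RNA polymerase II, Vcl, the adhesion protein vinculin, Smyd5, a protein methyltransferase, Nfic, a transcription factor, and Dcakd, named for a coenzyme A kinase domain. Likeness was the Euclidean distance between log2 CPM profiles centred over the 4 libraries, among 10774 genes of at least 5 CPM on average, and it ran from 0.0365 for Gpn1 to 0.0806 for Dcakd. With 4 libraries in 2 groups, such a list mainly collects genes with a similar fold change, and theirs ran from -0.88 (Gpn1) to -0.80 (Dcakd). Among the network genes, Mnt was nearest to Myc, at a distance of 0.248 (rank 148), followed by Mxi1 at 0.544 (rank 1470). Mycn lay at 0.925 (rank 5260), and Mxd1 was farthest at 3.59 (rank 10312).

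The parallel MLX branch, in which MLX pairs with the glucose-responsive factors MLXIP (MondoA) and MLXIPL (ChREBP), and the third MYC gene, Mycl, were read alongside. Mycl, known in dendritic cells, had 331 and 158 reads in caNIK, against 51 and 57 in control, a log2 fold change of 2.32 ± 0.49 (edgeR adjusted p = 0.0184). The direction was opposite to that of Myc and Mycn. Mycl averaged 12.7 ± 7.18 CPM in caNIK and 2.54 ± 0.153 CPM in control, and it did not pass without caNIK replicate 1 (log2 fold change 1.59, edgeR adjusted p = 0.0663). The other 5 did not pass, so 16.7% of this list was higher and 0% lower, against 13.8% and 8.21% of all genes tested. Mlx had a log2 fold change of 0.55 ± 0.20 and Mlxip one of -0.48 ± 0.19 (edgeR adjusted p = 0.0934 and 0.124). Each had no overlap between groups, as had 64.9% of all genes tested. Txnip and Arrdc4, arrestin genes that MondoA is known to induce, had log2 fold changes of -0.29 ± 0.21 and 0.65 ± 0.42 (edgeR adjusted p = 0.379 and 0.323). Mlxipl, with 18 and 30 reads in caNIK and 20 and 7 in control, had one of 0.87 ± 0.82 (edgeR adjusted p = 0.504). Without caNIK replicate 1, Mlxip and Txnip passed as lower (-0.72 and -0.62); without caNIK replicate 2, Arrdc4 passed as higher (1.15), and without caNIK replicate 1 its sign turned (-0.16).

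Genes for the proteins that the network recruits were read next, against 13.8% higher and 8.21% lower among all genes tested. Of all 14191 genes tested, 5076 had an unadjusted p under 0.05 in edgeR, in either direction. Of 16 MYC co-activator genes, such as the TRRAP and TIP60 complex, 0 were higher and 0 lower in edgeR, DESeq2 and limma-voom. Their log2 fold changes ran from -0.47 to 0.37, with 1 lower at an unadjusted p under 0.05 in edgeR. The lower count moved when a caNIK library was left out. Of 16 genes of the SIN3 and histone deacetylase co-repressors used by MXD proteins, 1 was lower (6.25%) and 0 higher in edgeR. The higher count was 1 at an unadjusted p under 0.05, 1 in DESeq2 and 0 in limma-voom. The lower one was Ing1, a SIN3 complex subunit that binds methylated histone H3, at 58.0 ± 4.28 CPM in caNIK and 87.2 ± 0.806 CPM in control (log2 fold change -0.59 ± 0.15, edgeR adjusted p = 0.0336). Ing1 did not pass without caNIK replicate 2, control replicate 1 or control replicate 2. Without caNIK replicate 2, the higher count of this list moved. Of 9 partners of MGA in its Polycomb complex, 0 were higher and 0 lower in edgeR (0 and 1 at an unadjusted p under 0.05, 0 and 1 in DESeq2, 0 and 0 in limma-voom), with a median log2 fold change of -0.29. Without caNIK replicate 1, the lower count of these partners moved. Counts over all genes tested also changed when a library was left out, but less in proportion than the counts that moved here.

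Genes that set how long the MYC protein lasts held 1 higher and 1 lower of 20 (5% each, against 13.8% higher and 8.21% lower among all genes tested), with a median log2 fold change of -0.04. Ppp2r5a, the phosphatase subunit that leads MYC towards degradation, rose to 247 ± 40.1 CPM in caNIK, against 121 ± 4.78 CPM in control (SD, n = 2 each; log2 fold change 1.02 ± 0.17, edgeR adjusted p = 0.00735), and passed in all 12 alternatives. Usp28, the deubiquitinase that protects MYC, fell to 17.7 ± 3.69 CPM in caNIK, against 33.8 ± 3.76 CPM in control (-0.93 ± 0.23, edgeR adjusted p = 0.0325). Usp28 did not pass without caNIK replicate 2 (edgeR adjusted p = 0.0706) or control replicate 1 (0.116), and MYC protein was not measured. The counts of this list moved when a caNIK library was left out, whereas those over all genes tested changed less in proportion.

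Known MYC target genes were read by class. Of 38 ribosome biogenesis genes, the most cited MYC targets, 0 were higher and 0 lower in edgeR, DESeq2 and limma-voom. Among all genes tested, 13.8% were higher and 8.21% lower in edgeR. Of the 38, 33 had a negative and 5 a positive log2 fold change (median -0.26, against 0.00 for all genes tested). Among all 14191 genes tested, 7057 had a negative and 7134 a positive log2 fold change. In each of the 38 genes, caNIK replicate 1 lay below caNIK replicate 2. Levels of the groups did not overlap for 17 of the 38, all lower in caNIK, against 31.6% lower among all genes tested. At an unadjusted p under 0.05 in edgeR, 6 were lower and 0 higher, against 5076 of all 14191 genes tested in either direction. The calls in this list moved when a library was left out, whereas the counts over all genes tested changed less in proportion. Of 27 genes of nucleotide, polyamine and folate-linked synthesis, 3 were lower and 1 higher (11.1% and 3.7%, against 8.21% and 13.8% of all genes tested; median -0.21). The lower share was near that of all genes. Impdh1, an enzyme of guanine nucleotide synthesis, fell to 36.9 ± 14.1 CPM in caNIK, against 152 ± 3.69 CPM in control (log2 fold change -2.04 ± 0.27, edgeR adjusted p = 0.0032). Prps2, which makes the ribose precursor of nucleotides and is a known direct MYC target, fell by 1.18 ± 0.17, and the purine enzyme gene Paics by 0.70 ± 0.15 (edgeR adjusted p = 0.00425 and 0.0209). Mthfd2, a mitochondrial folate enzyme, rose by 0.88 ± 0.24 (edgeR adjusted p = 0.0414). Both counts moved when a caNIK library was left out, whereas the counts over all genes tested changed less in proportion. Of these genes, Paics did not pass without control replicate 1, and Mthfd2 did not pass without caNIK replicate 2 or control replicate 1.

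Of 26 genes of translation, chaperones and nuclear transport, 2 were lower, the RNA-binding Pabpc1 (log2 fold change -0.61 ± 0.14) and the histone chaperone gene Nap1l1 (-0.55 ± 0.15; edgeR adjusted p = 0.0253 and 0.0394), and 0 higher (0 also at an unadjusted p under 0.05, in DESeq2 and in limma-voom). The lower share of 7.69% was near the 8.21% of all genes tested. Neither passed without control replicate 1 or control replicate 2. Counts in this list moved when a caNIK library was left out, whereas the counts over all genes tested changed less in proportion. In the list of cycle, growth and iron genes, 3 of 16 were higher and 4 lower (18.8% and 25%, against 13.8% and 8.21% of all genes tested). This list was chosen with earlier results on E2f2 known. The higher ones were the E2F factor gene E2f2 (3.32 ± 0.27), Id2, an inhibitor of differentiation factors (2.92 ± 0.43), and the lactate dehydrogenase gene Ldha (0.68 ± 0.16). The lower ones were the hexokinase gene Hk2 (-1.44 ± 0.17), E2f3 (-0.75 ± 0.15), E2f1 (-0.56 ± 0.15) and the cyclin-dependent kinase gene Cdk4 (-0.56 ± 0.15). Without caNIK replicate 1, the log2 fold change of Id2 was 2.24. EdgeR's adjusted p ran from 0.000596 for E2f2 to 0.0399 for E2f1. E2f1 lost its call whichever of the 4 libraries was left out, Cdk4 and Ldha did not pass without control replicate 1 or control replicate 2, and E2f3 did not pass without control replicate 1. The counts of this list moved with the library left out, whereas those over all genes tested changed less in proportion.

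Of 14 tested genes cited as repressed by MYC, 6 were higher and 2 lower (42.9% and 14.3%, against 13.8% and 8.21% of all genes tested), with a median log2 fold change of 0.39. This list was chosen with earlier results of these data on cell cycle inhibitors known, so its shares are not an independent result. Cdkn2b, a cyclin-dependent kinase inhibitor that MYC holds down through its partner MIZ1, had 292 and 245 reads in caNIK, against 11 and 5 in control. Cdkn1a, another such inhibitor and also a p53 target, had 1202 and 1715 reads in caNIK, against 368 and 279 in control. The stress gene Ndrg1 rose by 2.07 ± 0.32 and Gadd45a by 1.41 ± 0.26. Cdh2, the adhesion molecule N-cadherin, which is known to rise in stem cells that lack Myc, had 141 and 86 reads in caNIK, against 13 and 26 in control (2.70 ± 0.58), and the ferritin gene Fth1 rose by 0.89 ± 0.24. The lower ones were Cebpa, a granulocyte factor gene (-1.63 ± 0.36), and the inhibitor gene Cdkn1c (-1.49 ± 0.35). Cdkn2b had a log2 fold change of 5.14, and of 5.95 without control replicate 1. Over these 8, edgeR's adjusted p ran from 0.00152 for Cdkn2b to 0.0391 for Fth1. Cdh2 and Cebpa did not pass without caNIK replicate 1, Cdkn1c without caNIK replicate 2 or control replicate 1, and Fth1 without control replicate 1. Cdkn1a and Gadd45a are also known p53 targets, and the dependence of these genes on MYC was not tested.

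**Figure D4:**
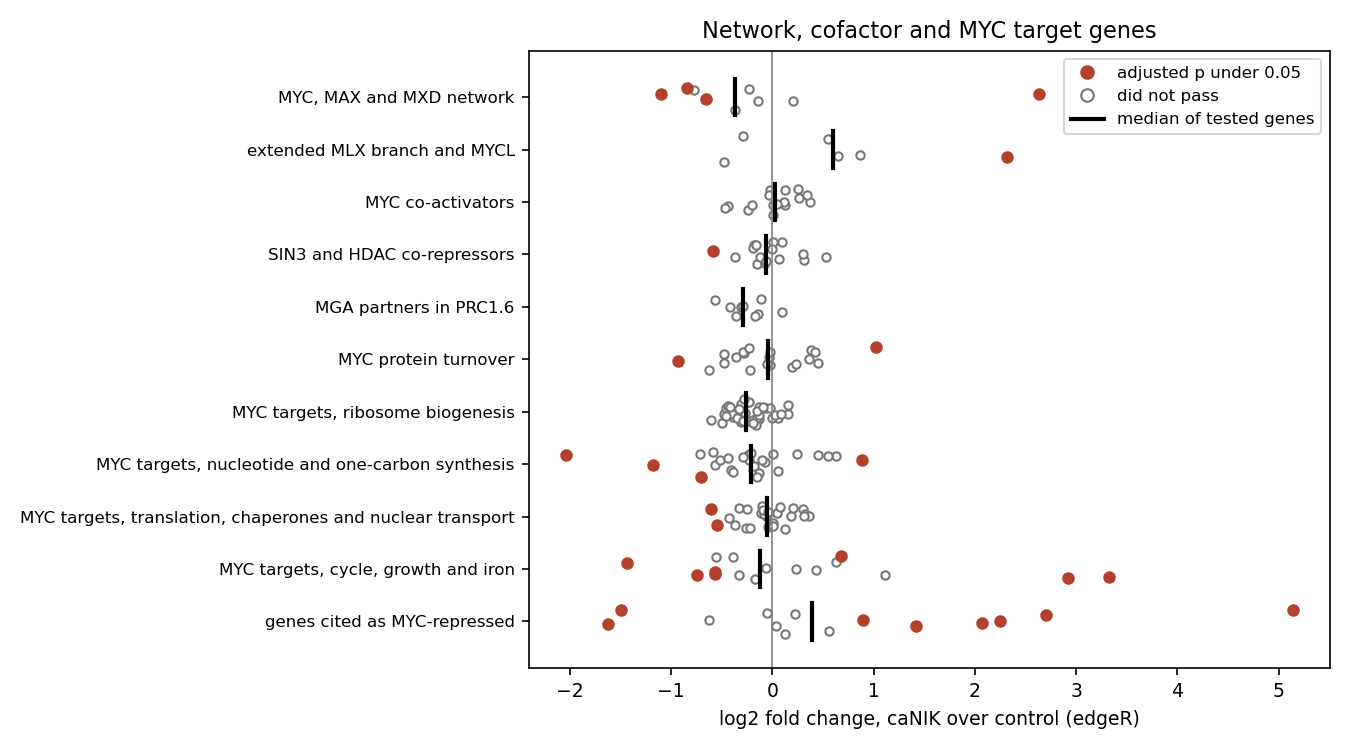
Log2 fold change, caNIK over control, of every tested gene of the network, its cofactor lists and its target lists; red points passed at an adjusted p under 0.05, open points did not, and black lines are medians. Ribosome biogenesis genes lie close together with a median of -0.26 and no red point, whereas genes cited as MYC-repressed spread from -1.63 to 5.14.

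Of 12 markers of dividing cells, 1 passed, Mki67 (log2 fold change 1.06 ± 0.22, edgeR adjusted p = 0.0165), and the others did not. Among all genes tested, 22.0% passed, 13.8% as higher and 8.21% as lower. Results on Mki67 were known before the lists were chosen. Their summed level was 4985 and 7074 CPM in caNIK, against 4990 and 5287 CPM in control. With Mki67 included, caNIK replicate 1 thus lay with the control libraries and caNIK replicate 2 above them. Mki67 alone gave 1556.5 and 2373 CPM in caNIK, against 894 and 987 CPM in control. Cdk1, Mcm2, Mcm3 and Mcm6 were lower in caNIK with no overlap, Rrm2 and Tyms higher with no overlap, and none of these passed. Levels of the groups did not overlap for 64.9% of all genes tested.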

How the data were processed

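For each of the 4 libraries, the authors deposited raw read counts by gene symbol, not normalized, per the file headers. The submitters' processing notes list the tools TopHat2 2.1.0, featureCounts 1.5.0, DESeq2 1.10.1 and FastQC without saying how each was used, and the build mm9. Strand setting, annotation and handling of multi-mapping reads: not given in the sources used here. In GENCODE M21 (GRCm38), exons of genes on the opposite strand cover 13.2% of the exon bases of Mxd4 (Gm42846), 7.91% of Mxd3 (Prelid1) and 2.91% of Mxi1 (Gm10197). Whether reads there were told apart depends on the strand setting and on the authors' mm9 annotation, which are not known. Network members hold 0.0724% to 0.0925% of the counts of a library.

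The edgeR package 4.0.16 was run in R 4.3.3. After filterByExpr, libraries were scaled by TMM, and glmQLFit and glmQLFTest (two-sided) were run over all 14191 kept genes with group as the only term. The threshold was an adjusted p of 0.05 (Benjamini-Hochberg over all kept genes). SE came from the F statistic. Alternatives were DESeq2 1.42.0, limma-voom (limma 3.58.1), other scalings and filters, the replicate number as a block, and each library left out in turn; with 1 library left in a group, that library is assumed to vary like the others. Every network gene had at least 146 reads in each library.

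The network genes, the lists and the tests were chosen with earlier results of these data known, including those on cell cycle inhibitors, E2f2 and Mki67. All network genes, Map3k14, the MLX branch genes and, per list, the 3 genes with the smallest p among those that passed were to be named, with the 5 genes nearest to Myc; other genes were named after their values were seen. Neither pair of replicates was a repeat within sampling noise (chi-square over degrees of freedom 42.4 for caNIK and 23.5 for control).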

Additional observations from a re-analysis of the deposited data

How the results depend on the processing

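The calls of the network were 1 higher gene in all 12 alternatives and 2 to 4 lower genes. Myc and Mxd1 passed throughout, Mycn and Mnt in 10 of 12 each, and Max, Mxi1, Mxd3 and Mga in 0 of 12; 101 of 108 alternative values of single network genes kept their direction and side of the threshold. Mycn missed with library totals (-1.16), and left-out libraries gave -1.61 to -0.74 for Mycn, -0.70 to -0.62 for Mnt, -1.16 to -0.48 for Mxd4 and -0.042 to 0.41 for Mxd3, which turned sign, as did Arrdc4 (-0.16 to 1.15). The cause of these changes was not tested.

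Same-numbered libraries deviated together over all genes (correlation 0.255), but the labels do not say what the numbers share. With the replicate number as a block, 1766 genes were lower in place of 1165, and Mxd4 passed (-0.80). Under the block the lower genes numbered 2 among co-activators, 1 among MGA partners, 3 for MYC turnover, 6 for ribosome biogenesis and 8 for nucleotide synthesis, and the higher ones 1 for co-repressors and 2 for nucleotide synthesis.

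Other counts that moved by over 1.5 times were these. Lower genes numbered 2 for ribosome biogenesis and 7 for nucleotide synthesis with library totals and with upper quartile factors. Upper quartile factors also gave 1 lower co-activator, 1 lower MGA partner and 2 lower turnover genes. With at least 1 read in any library, and with DESeq2, there were 1 higher co-repressor, 1 lower MGA partner and 6 lower nucleotide genes. DESeq2 and limma-voom each gave 2 higher turnover genes.

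With 1 library left out, higher and lower counts ran from 0 to 2 and 0 to 2 in the MLX and Mycl list, 0 to 0 and 0 to 1 for co-activators, 0 to 1 and 0 to 1 for co-repressors, 0 to 0 and 0 to 1 for MGA partners, and 1 to 2 and 0 to 2 for turnover. They ran from 0 to 1 and 0 to 11 for ribosome biogenesis, 0 to 4 and 3 to 10 for nucleotide synthesis, 0 to 5 and 0 to 5 for translation, 2 to 5 and 1 to 5 for cycle genes, and 5 to 6 and 1 to 2 for genes cited as MYC-repressed. Among all genes they ran from 1655 to 1968 and 858 to 1387. Among the 9 network genes, Mxd3 had the fewest reads, 146 to 235 per library.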

Other observations

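Both Xist, transcribed in female cells, and Y-linked genes were counted in each of the 4 libraries. Xist lay at 1190 and 1161 CPM in caNIK, against 1971 and 902.7 CPM in control, and Uty at 21.2 and 13.2 CPM in caNIK, against 5.34 and 17.7 CPM in control. Whether this touches any gene of the network was not tested.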
